A study of Mus musculus with 24 samples.

Results

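The Hox genes of mouse lumbar dorsal root ganglia were followed across embryonic ages, nerve lesion and culture. Members were all genes of the deposited table whose symbol is Hox, a cluster letter from a to d and a number with nothing after it. The rule took 38 of 20782 genes, with 10 in the Hoxa cluster, 10 in Hoxb, 9 in Hoxc and 9 in Hoxd. It used names and no measured value. The table covered 24 libraries in 8 groups of 3, named in the labels as neurons of dorsal root ganglia, the ganglia that hold the cell bodies of sensory neurons. Ganglia described as lumbar were taken from mouse embryos at E17.5 and E12.5. Adult L4 and L5 ganglia came after a peripheral lesion, which the study's design text calls conditioning, or after sham operation, at an interval not given in the sources used here. Adult lumbar ganglia were also dissociated, plated at low density on laminin and collected at 6, 12, 24 and 36 h. No genotype, strain, transgene or sex is given, nor whether libraries come from separate animals, so p-values measure only the spread between these libraries.

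Hox genes encode homeodomain transcription factors that lie in 4 clusters, and genes at matching places in different clusters form paralog groups. Low-numbered genes are switched on early and far toward the head, and high-numbered genes late and toward the tail, so that the combination present in a body segment marks its level. In the spinal cord Hox proteins set the columns and pools of motor neurons, often together with Pbx and Meis homeodomain partners, and Polycomb and Trithorax chromatin complexes hold the clusters silent or active.

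The deposited values are read counts that the authors divided by 1 factor per library, and recovered depth ran from 3.10 to 25.7 M reads. Among the shallow libraries, 2 of the 3 at E17.5 had 3.10 and 4.61 M reads, so that 1 read there was worth 3.53 and 2.31 in the table. Markers of sensory neurons were detected in every group, and so were markers of satellite glia and Schwann cells, with summed values of at least 22824 for 10 neuron genes and at least 5117 for 10 glia genes. In such mixed samples fewer cells of a type and less RNA per cell cannot be told apart. Before the results, 4 Hox values need naming. In E12.5 libraries Hoxa2 (the first library), Hoxc4 (the first), Hoxc5 (the second) and Hoxb9 (the third) held a value equal to the mean of all 24 libraries after trimming 20% at each end, rounded down to a whole read. What these libraries held for the 4 genes is not known, and results on them are given with and without those values. The search took only values of at least 5 reads, with the group's other libraries over 3-fold higher, so lower values were not checked.

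**Figure D1:**
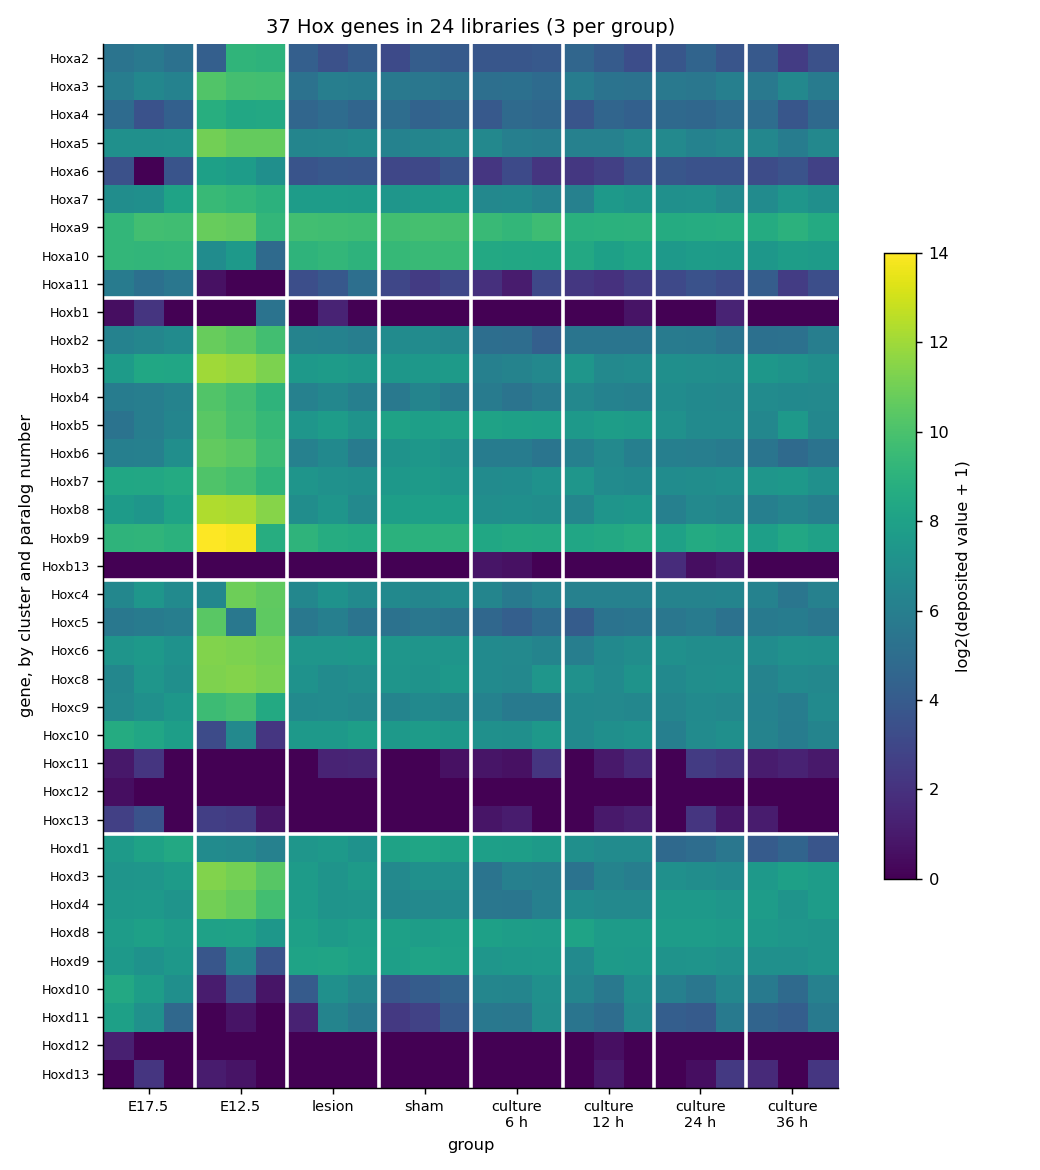
Deposited values of 37 Hox genes (down the page, by cluster and paralog number) in 24 libraries (across, 3 per group), coloured by log2(value + 1). Most genes of paralog groups 1 to 9 were brightest at E12.5, while Hoxa10, Hoxa11, Hoxc10, Hoxd10 and Hoxd11 were darker there than at E17.5, and the 4 trimmed-mean values stand out as darker cells among the E12.5 libraries of their gene.

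All 38 genes had reads in at least 1 library. The highest group mean reached 100 in 30 genes and stayed under 10 in 6, which were Hoxb13, Hoxc11, Hoxc12, Hoxc13, Hoxd12 and Hoxd13, all of paralog groups 11 to 13. Their highest single value was 10.6, for Hoxc13 in 1 E17.5 library, equal to 3 reads. Hoxb1, which patterns the hindbrain, read 38.9 in the third E12.5 library and 0 in the other 2, and at most 3.53 in any other group. Values of 0 such as these were outside the search for trimmed-mean values. E12.5 was the group with the highest mean for 24 of the 38 genes, and E17.5 for 7.

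Levels between genes were compared per kb of exon of the protein-coding transcripts. At E17.5 the leading gene was Hoxb7 with 265 ± 20.0 per kb (SD, n = 3 in this and all later means), ahead of Hoxa9 with 239 ± 40.8, Hoxb9 with 208 ± 17.2 and Hoxa10 with 196 ± 6.37. The E17.5 libraries of Hoxb7 and Hoxa9 overlapped, so their order is not beyond the spread. At E12.5 Hoxb9 had 6561 and 5578 per kb in the libraries with a usable value, Hoxb8 averaged 1608 ± 459.98 per kb, Hoxc6 1517 ± 120.02 and Hoxc8 1365 ± 104. The E12.5 libraries of Hoxb8, from 1083 to 1942 per kb, overlapped those of Hoxc6 and Hoxc8. After sham operation Hoxa9 led with 281 ± 11.3 per kb, then Hoxa10 with 221 ± 11.4 and Hoxb9 with 193 ± 4.37, and here each gene's 3 libraries lay clear of the next gene's. At 36 h of culture Hoxa9 (131 ± 23.7 per kb), Hoxb7 (120.4 ± 19.4) and Hoxb9 (108 ± 21.1) overlapped one another.

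The summed value of all Hox genes was 5599, 5999.6 and 5945 at E17.5 and 52306, 46800 and 24230 at E12.5. All 3 E17.5 libraries lay below all 3 E12.5 libraries. They did so also over the 34 genes in which no trimmed-mean value was found (mean 5096 ± 195 at E17.5 and 28056 ± 6993 at E12.5). The sum averaged 5022 ± 228 after lesion and 5384 ± 165 after sham operation, with ranges that overlapped. In culture it averaged 3780 ± 190.3 at 6 h, 3598 ± 185 at 12 h, 3226 ± 101 at 24 h and 3205 ± 170.2 at 36 h. Paralog groups 10 to 13 contributed 29.7%, 21.9% and 17.7% of the sum at E17.5, against 0.242%, 0.631% and 0.137% at E12.5. That share averaged 18.1% ± 2.87 after lesion and 17.0% ± 0.323 after sham operation. It was 17.4% ± 1.64 at 6 h, 15.7% ± 2.52 at 12 h, 12.6% ± 2.12 at 24 h and 11.3% ± 1.84 at 36 h. By cluster, Hoxb genes gave 28.6% ± 1.93 of the sum at E17.5 and 53.8% ± 13.9 at E12.5, and Hoxd genes 23.5% ± 3.20 at E17.5 and 9.61% ± 0.536 at E12.5, where the E12.5 sums of Hoxa, Hoxb and Hoxc each hold at least 1 trimmed-mean value.

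Between the embryonic ages 18 Hox genes fell at E17.5 relative to E12.5, 8 of them in paralog groups 1 to 4 and 10 in groups 5 to 9, and 7 rose. The rises were Hoxd1, Hoxd9, Hoxa10, Hoxc10, Hoxa11, Hoxd10 and Hoxd11. Hoxa11, Hoxd10 and Hoxd11 had no E12.5 library at 10 or more, so they passed the filter (3 libraries at 10) only through E17.5 and could enter the test only by being higher there. They are described below and give no support to a pattern by place in the cluster. The other 6 genes of groups 11 to 13 had too few reads for a test. Of 31 members tested 25 were called (80.6%), at an adjusted p under 0.05 in limma on log2(value + 1) with Benjamini-Hochberg adjustment over 14550 genes, and 63% of all tested genes were called. In the upward direction 7 members were called, Hoxa11, Hoxd10 and Hoxd11 among them, where 31.1% of all genes were. In the downward direction 18 members were called, where 31.9% of all genes were. The 25 called members also include Hoxa11, Hoxd10 and Hoxd11. The median log2 change of the 31 members was -3.09, against -0.05 over all tested genes. The 3 libraries of each age lay apart in 25 members, and in 69.8% of all tested genes. Spearman's correlation of paralog number with log2 change was 0.49 across the 31 genes, which share libraries and are not independent, and 0.31 across 28 without Hoxa11, Hoxd10 and Hoxd11.

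Hoxd11, Hoxd10 and Hoxa11 had the largest log2 changes, in a test they could enter only by being higher at E17.5. Hoxd11, which acts with Hoxa11 in forearm and kidney development, had 244, 134 and 25.4 at E17.5 against 0, 0.642 and 0 at E12.5. Hoxd10, which shapes lumbar motor neurons and the hindlimb, had 342, 222 and 125 at E17.5 against 1.10, 8.99 and 0.721 at E12.5. Hoxa11 had 55.1, 35.3 and 46.2 at E17.5 against 0.549, 0 and 0 at E12.5. No E17.5 library came near an E12.5 library in these 3 genes, while the first E17.5 library was the highest of its group in each and the third was far the lowest in Hoxd11. Their log2 changes were 6.34 ± 0.76 (SE) for Hoxd11, with adjusted p = 0.000122 in limma, 6.01 ± 0.67 for Hoxd10, with 8.11e-05, and 5.31 ± 0.44 for Hoxa11, with 1.37e-05. Hoxd11 and Hoxa11 each rest on 1 read in all E12.5 libraries. With any 1 E17.5 library left out, these 3 genes had too few libraries at a value of 10 or more for the test, and 4 members rose. On the reads the ratio was 963 for Hoxd11, with an exact 95% counting interval of 172 to 38104, and 248 for Hoxa11, with 43.8 to 9839. These intervals cover counting error only.

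The Hoxd10 and Hoxd11 promoters are shown because these neighbours had the largest rises, as 300 bases of RefSeq on build GRCm38.p6, plus strand, from 250 before to 50 after the annotated start. Hoxd10 lies at chr2:74691641-74691940 and Hoxd11, for the upstream of its 2 RefSeq starts, at chr2:74679308-74679607. Capitals mark matches, on either strand, to the TATA box letters TATAAA, to the CCAAT box, to the AP-1 letters TGANTCA or to the Hox-Pbx letters TGATNNAT, and no marked matches overlap in the sequences printed here.
Hoxd10: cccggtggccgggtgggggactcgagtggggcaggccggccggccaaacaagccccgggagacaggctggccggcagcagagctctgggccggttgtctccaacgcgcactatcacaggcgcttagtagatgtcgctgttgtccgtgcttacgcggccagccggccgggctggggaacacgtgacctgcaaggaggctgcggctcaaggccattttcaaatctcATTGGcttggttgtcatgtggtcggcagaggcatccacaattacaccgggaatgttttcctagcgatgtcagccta
Hoxd11: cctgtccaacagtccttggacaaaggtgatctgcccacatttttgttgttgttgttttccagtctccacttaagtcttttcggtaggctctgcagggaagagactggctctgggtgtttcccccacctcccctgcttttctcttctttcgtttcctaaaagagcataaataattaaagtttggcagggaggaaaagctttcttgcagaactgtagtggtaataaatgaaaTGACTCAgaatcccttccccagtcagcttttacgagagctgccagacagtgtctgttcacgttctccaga
Hoxd10 held 1 CCAAT match and 22 CpG dinucleotides, and Hoxd11 at this start held 1 AP-1 match and 4 CpG dinucleotides. The window of its downstream start, chr2:74682073-74682372, held 25 CpG dinucleotides, 1 Hox-Pbx match and no AP-1 match. Of 32851 RefSeq promoters of this length 37.4% held CCAAT and 7.81% held the AP-1 letters. For 21 of the 38 members the RefSeq table gave 23 promoters, of which 14 held CCAAT, 4 held TATAAA (13.6% of all promoters), 4 held the Hox-Pbx letters (8.85%) and 1 the AP-1 letters. Their median number of CpG dinucleotides was 14, against 7 over all promoters. A match is a string of letters and no measured binding site.

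The group 10 genes Hoxc10 and Hoxa10, both tied to lumbar identity of the cord and to the hindlimb, and Hoxd9 moved the same way from higher starting values. Hoxc10 had 386, 314 and 229 at E17.5 against 8.23, 97.0 and 3.60 at E12.5, a log2 change of 4.24 ± 1.00. Hoxa10 had 628, 593 and 627 at E17.5 against 111, 184 and 28.1 at E12.5, a change of 2.87 ± 0.57. Hoxd9 had 187, 138 and 176 at E17.5 against 12.6, 81.0 and 11.5 at E12.5, a change of 2.79 ± 0.64. The groups were apart in all 3 genes (adjusted p = 0.00705, 0.00238 and 0.00485 in limma). The second E12.5 library was the highest of its group in Hoxa10, Hoxc10, Hoxd9 and Hoxd10, and the third was the lowest in each. Without the first E12.5 library Hoxc10 was no longer called, at log2 3.84 and adjusted p = 0.0607. Hoxd1 was the 1 gene of the head end that rose, with 198, 272 and 345 at E17.5 against 105, 97.0 and 70.6 at E12.5 (log2 1.55 ± 0.24, adjusted p = 0.000605 in limma). It is known as a regulator of pain-sensing neurons under nerve growth factor. Hoxd8, between these genes in the cluster, had 211, 250.4 and 208 at E17.5 and 257, 271 and 171 at E12.5, with overlapping groups and a log2 change of -0.04 ± 0.20.

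**Figure D2:**
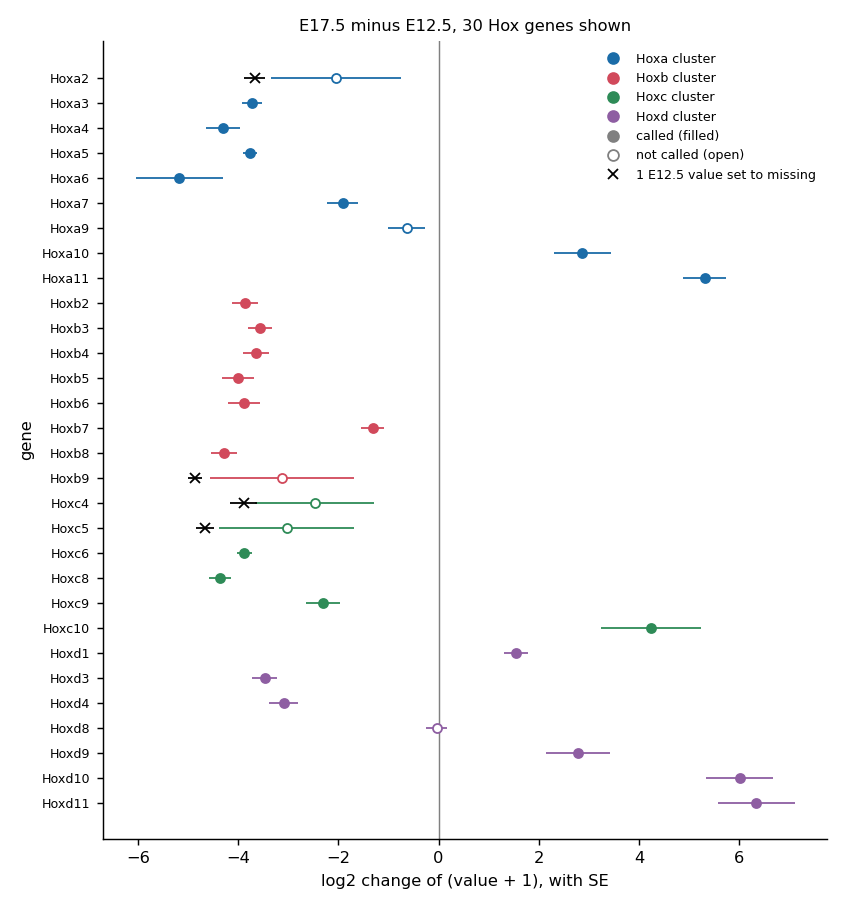
Log2 change (x axis, with SE) of 30 of the 31 tested Hox genes (down the page, by cluster) at E17.5 relative to E12.5, with called genes filled. Hoxd11 (6.34) and Hoxd10 (6.01) lie farthest right, most genes numbered 2 to 8 lie near -4, and black crosses give the 4 genes with 1 E12.5 value set to missing, which move left to between -3.67 and -4.86.

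The head-end genes of groups 1 to 4 fell together, by 3.09 to 4.30 on the log2 scale in the 7 called genes described here. Hoxa4, which patterns cervical segments, had 28.9, 10.6 and 18.5 at E17.5 against 445, 329.6 and 346 at E12.5, with the largest fall of these genes (-4.30 ± 0.33). Hoxb3 had 206, 328 and 309.8 at E17.5 against 4107, 3555 and 2392 at E12.5. In both the lowest E12.5 library was several times the highest E17.5 library, and adjusted p in limma was 1.00e-05 and 4.54e-06. Hoxd3, with its paralogs a gene of neck and throat structures, had 157, 166 and 206 at E17.5 against 2644, 2118 and 1323 at E12.5. Hoxd4 had 174, 183 and 148 at E17.5 against 2084, 1643 and 861 at E12.5. These neighbours of Hoxd1 therefore ran opposite to it, by -3.47 ± 0.24 for Hoxd3 and -3.09 ± 0.29 for Hoxd4. The other 3 called were Hoxa3, Hoxb2 and Hoxb4, with E17.5 means of 65.7 to 88.3 and E12.5 means of 867 to 1333.

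Of the 15 members of groups 5 to 9, 10 fell, with log2 changes from -5.17 to -1.31, Hoxd9 rose and 4 were not called. Hoxa5, needed for lung and sternum, had 128, 131 and 134 at E17.5 against 2093, 1633 and 1637 at E12.5. Hoxc8, which sets motor pools of the forelimb level, had 89.6, 166 and 125 at E17.5 against 2555, 2743 and 2353 at E12.5. Hoxb8 had 205, 166 and 273 at E17.5 against 5118, 4737 and 2854 at E12.5. These gave log2 changes of -3.75 ± 0.14, -4.36 ± 0.21 and -4.28 ± 0.25, with adjusted p in limma of 4.42e-07, 1.04e-06 and 2.46e-06. Hoxc6 behaved like them, with 159.6, 190.5 and 141 at E17.5 against 2570 (the highest), 2432 and 2194 at E12.5. As deposited, Hoxa6 had the largest fall of all members, at -5.17 ± 0.87, on 10.1, 0 and 11.6 at E17.5 against 249, 209 and 123 at E12.5. The 0 came from the library of 3.10 M reads, where 1 read was worth 3.53. Over 14 alternatives the Hoxa6 change ran from -5.81 to -3.99, so its rank above Hoxc8 and Hoxb8 depends on the setting. Smaller falls were called for Hoxc9, the thoracic determinant of motor columns (-2.31 ± 0.34), Hoxa7 (-1.91 ± 0.31) and Hoxb7 (-1.31 ± 0.23). Hoxb5 (-4.00 ± 0.31) and Hoxb6 (-3.88 ± 0.32) were near their neighbours. Hoxa9 was not called, with 622, 868 and 825 at E17.5 and 1725, 1601 and 609.9 at E12.5, where the third E12.5 library lay below all 3 E17.5 libraries.

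The other 4 genes that were not called are those with a trimmed-mean value at E12.5. Hoxb9, of the thoracic group, had 544, 575 and 488 at E17.5 against 16889, 14359 and a trimmed-mean 418 at E12.5. Hoxc4 had 87.0, 162 and 104 at E17.5 against a trimmed-mean 87.8, 1895 and 1516 at E12.5. Hoxc5 had 47.7, 56.4 and 62.4 at E17.5 against 1387, a trimmed-mean 46.9 and 1453 at E12.5. In each case the trimmed-mean value sat with the E17.5 libraries and the other 2 far above them. Hoxa2, which patterns the neural crest of the second pharyngeal arch, had 41.5, 49.4 and 37.0 at E17.5 against a trimmed-mean 18.1, 574 and 525 at E12.5. As deposited the log2 changes were -3.12 ± 1.43 for Hoxb9, -2.47 ± 1.19 for Hoxc4, -3.03 ± 1.34 for Hoxc5 and -2.05 ± 1.30 for Hoxa2, with adjusted p in limma from 0.0941 to 0.213. With those 4 values set to missing, an alternative chosen after seeing the data that leaves 2 E12.5 libraries per gene, all 4 were called. The changes were then -4.86 ± 0.14 for Hoxb9, -3.89 ± 0.27 for Hoxc4, -4.66 ± 0.18 for Hoxc5 and -3.67 ± 0.21 for Hoxa2, with adjusted p in limma from 4.28e-07 to 1.21e-05, and 22 members fell. In 1 fit over all 24 libraries, with the deposited values kept, these 4 and Hoxa9 were called lower (adjusted p in limma from 0.000976 to 0.0246). Also with those values kept, DESeq2 on recovered reads called these 4 and Hoxa9 lower (adjusted p from 0.000647 to 0.0421). By edgeR, Hoxb9, Hoxc4 and Hoxc5 were called lower (adjusted p from 0.0325 to 0.0474), and Hoxa2 and Hoxa9 were not.

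Other measures moved with the same contrast. A list of 17 markers of spinal cord neurons and their precursors summed to between 16.2 and 102 at E17.5 and between 1618 and 3290 at E12.5, with 13 of 14 tested lower and Mnx1, Lbx1, Barhl2, Fgf15 and Evx1 at 0 in all 3 E17.5 libraries. For mesenchyme and fibroblasts, 14 markers summed to between 32392 and 40979 at E17.5 and between 10026 and 21857 at E12.5, with 6 higher and 2 lower. Glia markers summed to between 15277 and 16935 at E17.5 and between 5117 and 5915 at E12.5, and sensory neuron markers to between 55827 and 70868 at E17.5 and between 22824 and 36801 at E12.5. Blood markers, 6 genes, summed to between 16409 and 27614 at E17.5 and between 6154 and 9286 at E12.5. Muscle markers, 7 genes, summed to between 57.8 and 102 at E17.5 and between 38.9 and 553 at E12.5, with 1 of 5 tested higher. Their part in the Hox changes was not tested. Within E12.5 the third library had the lowest spinal cord, muscle and sensory neuron sums, the highest mesenchyme sum and the lowest Hox sum. Library numbers in the labels were 336 to 338 at E17.5 and 84, 86 and 87 at E12.5, so library series and age cannot be told apart. Whether both ages were dissected at the same levels, or with the same surrounding tissue, was not tested.

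The partners and chromatin regulators of Hox genes were read against all tested genes in the same contrast, of which 31.9% fell and 31.1% rose. Of 9 Pbx, Meis and Pknox genes, the DNA-binding partners of Hox proteins, 6 fell and Pknox2 rose (0.87 ± 0.14). The falls included Meis1 (-2.65 ± 0.13) and Meis2 (-1.82 ± 0.16). Of 25 chromatin and upstream regulators 22 were tested, 18 fell and 2 rose. The falls were led by Cbx2 (-3.07 ± 0.13), Ezh2 (-2.82 ± 0.20) and Jarid2 (-2.24 ± 0.16), all of Polycomb complexes, and the rises included Ezh1 (1.03 ± 0.21). All of these were called in limma at an adjusted p of at most 0.00254 for those named. Of the Hox cluster noncoding RNAs the table held Hotair, Hoxa11os, Hoxd3os1 and Mir10a, none of them tested between the ages. Hotair, transcribed from the HoxC cluster near Hoxc11, had 24.0, 10.6 and 2.31 at E17.5 and 0, 0.642 and 0 at E12.5.

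Adult sham-operated ganglia were next set against E17.5 ganglia, groups that also differ in operation, ganglion levels (L4 and L5 against lumbar) and library series, which cannot be told apart from age. The E17.5 libraries are those of the comparison above, and the sham libraries serve again below. Here 3 of 31 tested members rose (28.9% of all genes did), 11 fell (31.1% did), and 17 were not called, with 60% of all 14652 tested genes called in either direction. The median change of the members was -0.11, against -0.03 over all genes. The groups lay apart in 17 members and in 67.3% of all genes. The largest falls were in Hoxd10, Hoxd11 and Hoxa11, of which Hoxa11 passed the filter only through E17.5. Hoxd10 had 11.8, 16.1 and 20.6 after sham operation against 342, 222 and 125 at E17.5. Hoxd11 had 3.94, 5.85 and 14.9 after sham operation against 244, 134 and 25.4 at E17.5. Hoxa11 had 6.89, 4.39 and 6.88 after sham operation against 55.1, 35.3 and 46.2 at E17.5. The groups did not overlap in any of the 3, and the log2 changes were -3.66 ± 0.36, -3.56 ± 0.76 and -2.72 ± 0.34, with adjusted p in limma of 2.75e-05, 0.0029 and 0.000121.

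The 11 falls include Hoxa11, which had no sham library at 10 or more and could be tested only as a fall. The changes of Hoxa10 and Hoxc10 were smaller. Hoxa10 had 657, 729 and 697 after sham operation and 628, 593 and 627 at E17.5, and was not called (0.17 ± 0.10). Hoxc10 had 189.9, 201 and 174 after sham operation against 386, 314 and 229 at E17.5, with a change of -0.68 ± 0.19 (adjusted p = 0.0117 in limma). Among the 3 rises, Hoxb5 was the largest, with 268, 235 and 254 after sham operation against 39.8, 63.5 and 80.9 at E17.5 (2.08 ± 0.24, adjusted p = 7.90e-05 in limma). Hoxb6, its neighbour, had 148, 166 and 135 after sham operation against 63.8, 67.0 and 120.2 at E17.5 (0.89 ± 0.25). Hoxd9 rose by 0.63 ± 0.16. Hoxd9 (adjusted p = 0.202 in limma), Hoxc10 (0.345), Hoxa2 (0.067) and Hoxd3 (0.0505) were not called in 1 fit over all 24 libraries. Without the second E17.5 library 5 members rose, with Hoxa9 (adjusted p = 0.0336) and Hoxc8 (0.0171) added. Hoxb7, on the other side of Hoxb6, fell, with 176, 199 and 162 after sham operation against 324, 332 and 372 at E17.5 (-0.93 ± 0.14), so neighbours within 1 cluster moved in opposite directions. Hoxa2 changed by -1.69 ± 0.34, with 7.87, 16.8 and 14.3 after sham operation against 41.5, 49.4 and 37.0 at E17.5. The remaining called members, Hoxa3, Hoxa5, Hoxb3, Hoxd3 and Hoxd4, had log2 changes from -0.58 to -0.81. Of these Hoxa3, Hoxb3 and Hoxd3 each lost the call when certain single libraries were left out. Hoxa3 did so without the second E17.5 or the second or the third sham library (adjusted p from 0.0559 to 0.0976), Hoxb3 without the first or the second sham library (0.0732 and 0.0574), and Hoxd3 without the third E17.5 or the first sham library (0.0521 and 0.0991). Hoxd1 had 269.6, 296 and 268 after sham operation and 198, 272 and 345 at E17.5, with groups that overlapped and a change of 0.07 ± 0.19.

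Glia markers summed to between 81987 and 100837 after sham operation and between 15277 and 16935 at E17.5, and mesenchyme markers to between 8176 and 10529 after sham operation and between 32392 and 40979 at E17.5, with 12 of 14 lower. Sensory neuron markers summed to between 96636 and 106437 after sham operation and between 55827 and 70868 at E17.5, with 2 of 10 higher and 1 lower. Endothelium markers, 5 genes, summed to between 1018 and 1136 after sham operation and between 3111 and 3433 at E17.5, with 4 lower. Blood markers summed to between 4620 and 5014 after sham operation and between 16409 and 27614 at E17.5, with 5 of 6 lower. Muscle markers, 7 genes, summed to between 5.90 and 16.1 after sham operation and between 57.8 and 102 at E17.5, and macrophage markers, 5 genes, to between 402 and 431 after sham operation and between 439 and 547 at E17.5. Their part in the Hox differences was not tested. Of the 9 partner genes 4 fell, Meis1, Meis2 and Meis3 among them, and 0 rose, where 5 were not called. Of 22 regulators 11 fell (31.1% of all genes did) and 2 rose (28.9% did), Cbx7 (3.13 ± 0.20) and Ezh1 (1.75 ± 0.17), with Ezh2 (-2.41 ± 0.27), Rnf2 (-1.93 ± 0.15) and Phc1 (-1.89 ± 0.18) the largest falls.

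**Figure D3:**
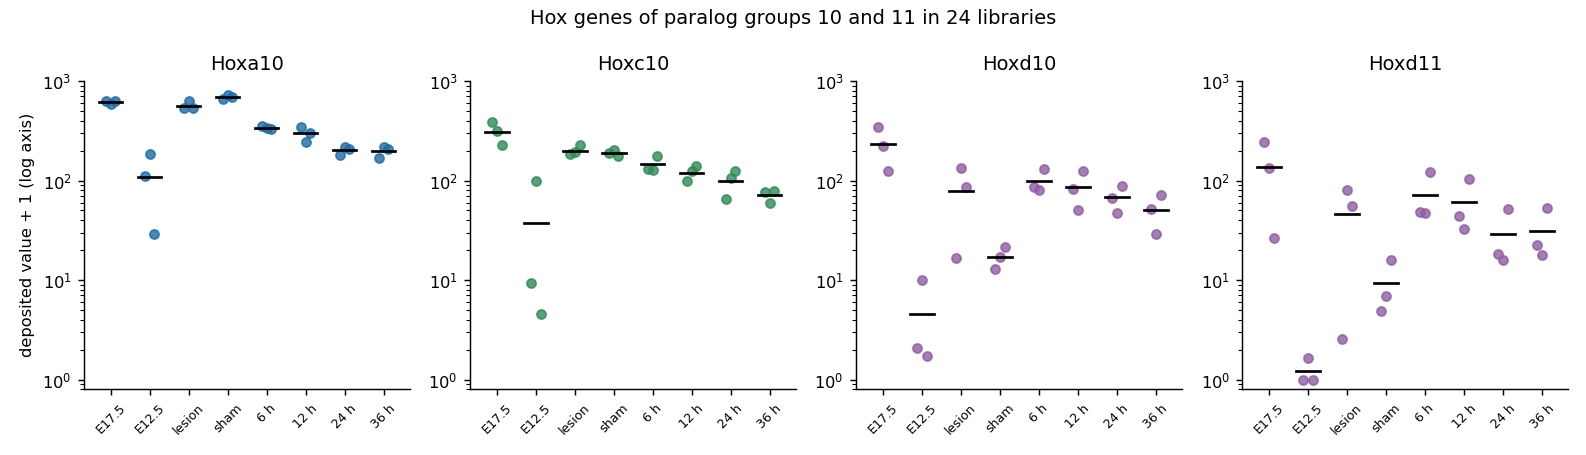
Deposited value + 1 (log axis) of Hoxa10, Hoxc10, Hoxd10 and Hoxd11 in each of 24 libraries (points) with the group mean (bar). E17.5 libraries lie above E12.5 libraries in all 4 genes, Hoxd10 and Hoxd11 are lower after sham operation than at E17.5, and 2 of 3 lesion libraries lie well above the sham libraries in both.

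Peripheral lesion, known as a conditioning injury that raises the growth capacity of sensory neurons, was compared with sham operation in adult L4 and L5 ganglia. In lesioned ganglia 8 Hox genes fell, 5 of them in the Hoxb cluster, and Hoxd3 and Hoxd4 rose. Of 30 members tested 10 were called (33.3%), and 41.2% of all 14556 tested genes were. By direction, 2 members rose where 20.9% of all genes did, and 8 fell where 20.2% did. The median change of the members was 0.07, against -0.01 over all genes. Groups lay apart in 12 of the 30 members and in 52.5% of all genes.

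Within the Hoxd cluster Hoxd1 went one way and its neighbours the other. Hoxd1 had 165, 192 and 139.9 after lesion against 269.6, 296 and 268 after sham operation. Hoxd3 had 204, 154 and 198 after lesion against 94.5, 127 and 132 after sham operation. Hoxd4 had 212, 152 and 159.6 after lesion against 87.6, 94.3 and 106 after sham operation. Every lesion library lay outside the sham range in these 3 genes. Hoxd1 changed by -0.75 ± 0.12 (adjusted p = 0.000333 in limma), Hoxd3 by 0.65 ± 0.15 (0.00441) and Hoxd4 by 0.85 ± 0.15 (0.000541). In 1 fit over all 24 libraries Hoxd3 missed the threshold, with an adjusted p of 0.0766.

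Counting of Hoxd3 and Hoxd4 is uncertain over part of their exon bases. They share 388 exon bases over all annotated transcripts (9.26% of those of Hoxd3 and 13.2% of those of Hoxd4), and the readthrough gene Gm28230 with the antisense Hoxd3os1 covers 79.3% of the coding-transcript exon bases of Hoxd3 and Gm28230 alone 45.1% of those of Hoxd4. Whether counting used strand is not given, so reads of these genes cannot be told apart. The same holds for Hoxb2 and Hoxb3, where the antisense Hoxb3os covers 58.5% of the exon bases of Hoxb2 and 63.9% of those of Hoxb3, in every comparison given here. Other annotated genes also cover 15.0% to 25.1% of the exon bases of Hoxa2, Hoxa3, Hoxa4, Hoxa7, Hoxa11 and Hoxd11. Hoxc5 and Hoxc10 share 166 exon bases over all annotated transcripts (5.37% of those of Hoxc5 and 8.7% of those of Hoxc10). Hoxd3os1 itself held at most 1.67 in any lesion or sham library. In GENCODE M21 on mm10 Hoxd3 spans chr2:74711927-74748442, Hoxd4 chr2:74711929-74729160 and Hoxd1 chr2:74762980-74765142, all on the plus strand. The promoters of the 3 genes are shown because they recur in the culture results, again with 250 bases before and 50 after the RefSeq start on GRCm38.p6 and with the same capitals. Hoxd1 is at chr2:74762730-74763029, Hoxd3 at chr2:74711743-74712042 and Hoxd4 at chr2:74721728-74722027.
Hoxd1: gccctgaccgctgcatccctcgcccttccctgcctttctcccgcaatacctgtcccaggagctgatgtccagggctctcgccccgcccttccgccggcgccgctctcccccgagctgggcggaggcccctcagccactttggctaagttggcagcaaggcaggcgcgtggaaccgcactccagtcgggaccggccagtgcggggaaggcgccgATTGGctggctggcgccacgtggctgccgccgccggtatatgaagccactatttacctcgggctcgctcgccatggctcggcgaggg
Hoxd3: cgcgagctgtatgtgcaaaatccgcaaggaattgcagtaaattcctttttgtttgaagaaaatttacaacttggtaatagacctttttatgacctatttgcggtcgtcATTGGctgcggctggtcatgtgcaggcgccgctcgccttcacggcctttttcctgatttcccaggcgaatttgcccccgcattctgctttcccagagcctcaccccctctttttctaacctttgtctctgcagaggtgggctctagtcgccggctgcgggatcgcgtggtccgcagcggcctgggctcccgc
Hoxd4: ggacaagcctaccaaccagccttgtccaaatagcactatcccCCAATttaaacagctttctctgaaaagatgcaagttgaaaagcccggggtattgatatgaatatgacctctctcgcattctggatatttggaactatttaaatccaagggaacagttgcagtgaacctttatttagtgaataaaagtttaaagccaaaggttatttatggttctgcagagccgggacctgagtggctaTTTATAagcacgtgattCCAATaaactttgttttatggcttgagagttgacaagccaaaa
Each held CCAAT, once in Hoxd1 and Hoxd3 and at 2 places in Hoxd4, which also held TATAAA on the minus strand. None of the 3 held the AP-1 or the Hox-Pbx letters, which says only that those letters are not in this window. CpG dinucleotides numbered 29 in Hoxd1, 20 in Hoxd3 and 4 in Hoxd4, so the genes that rose together differed in this respect.

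The 5 Hoxb genes that fell after lesion had no member of their cluster rising beside them. Hoxb6 had 70.4, 98.5 and 56.7 after lesion against 148, 166 and 135 after sham operation. Hoxb8, which is active from the lower cervical cord to the tail, had 118, 157 and 93.7 after lesion against 226, 236 and 240.3 after sham operation. Hoxb5 had 161, 209 and 147 after lesion against 268, 235 and 254 after sham operation. The groups stayed apart in all 3 genes. Changes were -1.01 ± 0.18 for Hoxb6, -0.96 ± 0.16 for Hoxb8 and -0.56 ± 0.13 for Hoxb5, with adjusted p in limma of 0.000710, 0.000374 and 0.00405. Hoxb2 had 76.6, 71.8 and 61.9 after lesion against 106, 109 and 91.8 after sham operation (-0.54 ± 0.15, adjusted p = 0.0109 in limma). Hoxb7 (-0.37 ± 0.13), Hoxc8 (-0.38 ± 0.13) and Hoxa10 (-0.30 ± 0.09) fell by less. Hoxb7 was no longer called without the second or the third lesion library or the first or the second sham library, with adjusted p from 0.0589 to 0.146, and Hoxc8 without the second or the third lesion library or the first or the third sham library, with 0.0748 to 0.14. With all libraries kept, DESeq2 called neither gene (adjusted p = 0.0665 for Hoxb7 and 0.0802 for Hoxc8). Each was called in 7 of 13 alternatives. In 1 fit over all 24 libraries 3 members stayed lower (Hoxb6, Hoxb8 and Hoxd1) and 1 higher (Hoxd4), where the spread came from all groups. Without the second sham library 5 members fell, and Hoxa10 (adjusted p = 0.0568) and Hoxb2 (0.0518) too were not called.

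Hoxd10 and Hoxd11 differed most between libraries of 1 group. Hoxd10 had 15.5, 132 and 84.4 after lesion and 11.8, 16.1 and 20.6 after sham operation. Hoxd11 had 1.55, 78.5 and 54.3 after lesion and 3.94, 5.85 and 14.9 after sham operation. The first lesion library lay inside the sham range for Hoxd10 and below it for Hoxd11, and the other 2 lay above it for both. Neither was called, with log2 1.77 ± 0.80 (adjusted p = 0.132 in limma) for Hoxd10 and 1.46 ± 1.52 (0.498) for Hoxd11. Without the first lesion library both were, with 2.67 (adjusted p = 1.13e-05 in limma) and 3.03 (0.000201), and 4 members then rose. With all libraries kept, DESeq2 on recovered reads called Hoxd10 higher, at log2 2.25 (adjusted p = 0.0217), and did not call Hoxd11. Hoxa11 had too few reads for a test, with 9.29, 13.4 and 34.1 after lesion and 6.89, 4.39 and 6.88 after sham operation. Hoxa9, the gene with the highest level per kb in both groups, had 879, 825 and 814 after lesion and 876, 947 and 896 after sham operation, with groups that overlapped (-0.11 ± 0.07).

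Macrophage markers, 5 genes, summed to between 1050.4 and 1354 after lesion and between 402 and 431 after sham operation, with 4 of 5 higher. Mesenchyme markers summed to between 10754 and 13047 after lesion and between 8176 and 10529 after sham operation, with 7 of 13 tested higher, and sensory neuron markers to between 103894 and 120949 after lesion and between 96636 and 106437 after sham operation, with 5 of 10 lower and 1 higher. For glia, 10 markers summed to between 71455 and 95621 after lesion and between 81987 and 100837 after sham operation, with 4 higher and 2 lower. Endothelium markers summed to between 1167 and 1358 after lesion and between 1018 and 1136 after sham operation, with 2 of 5 higher, and blood markers to between 3197 and 4150 after lesion and between 4620 and 5014 after sham operation, with 2 of 6 lower. The 17 spinal cord markers summed to between 46.8 and 73.5 after lesion and between 16.8 and 27.0 after sham operation, with 2 of them tested and 1 higher. Their part in the Hox changes was not tested. Of the 9 partner genes 3 rose (20.9% of all genes did) and 1 fell (20.2% did). Among the rises were Meis3 (0.36 ± 0.12) and Pknox1 (0.26 ± 0.09), and the fall was Pknox2 (-0.66 ± 0.10). Of 22 tested regulators 8 rose, led by the demethylase gene Kdm6b (0.84 ± 0.12), Cbx2 (0.73 ± 0.13) and the Trithorax gene Kmt2b (0.68 ± 0.09), and Cbx8 fell (-0.39 ± 0.14).

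**Figure D4:**
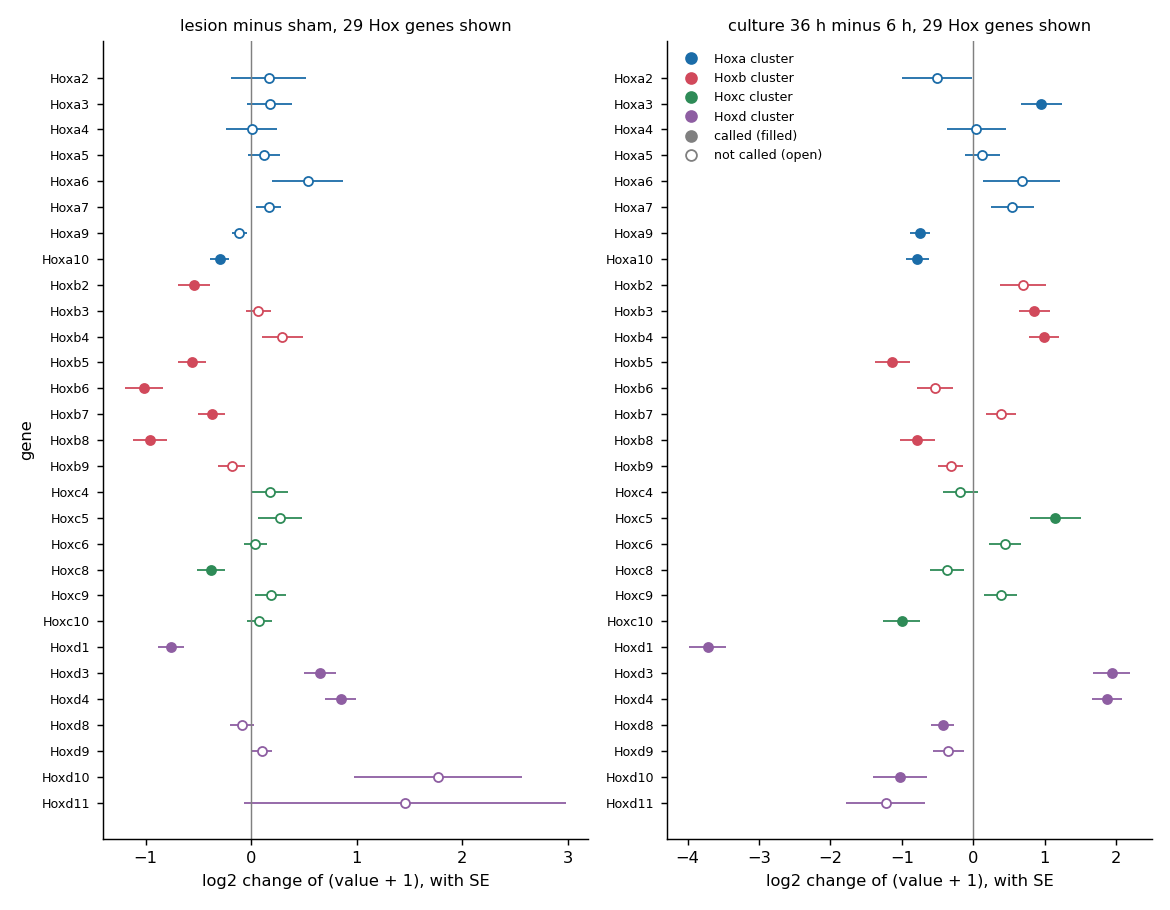
Log2 change (x axes, with SE) of 29 of the 30 tested Hox genes after lesion relative to sham operation (left) and at 36 h of culture relative to 6 h (right), with called genes filled. Hoxd1 lies to the left of 0 in both panels (-0.75 and -3.72) and Hoxd3 and Hoxd4 to the right, and the wide bars of Hoxd10 and Hoxd11 on the left reflect the spread among lesion libraries.

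In culture the 3 Hoxd genes of the head end, Hoxd1, Hoxd3 and Hoxd4, had the largest changes. Between 36 h and 6 h, 6 of 30 tested members rose (25.3% of all genes did) and 9 fell (25.3% did), so that 50% of tested members and 50.6% of all 15006 tested genes were called. The median change of the members was -0.25, against 0.02 over all genes. The 2 times lay apart in 20 members and in 59% of all genes. An F test over the 4 times in limma called 13 members, 43.3% of those tested, where 45.7% of all genes were called. By place in the cluster, 5 of 11 tested members of paralog groups 1 to 4 rose, 2 fell and 4 were not called. The 2 falls include Hoxd1, with the largest change of all members. Of 15 tested members of groups 5 to 9, 1 rose, 4 fell and 10 were not called. Of 4 tested members of groups 10 to 13, 3 fell and 1 was not called. Of all genes 25.3% rose and 25.3% fell. Spearman's correlation of paralog number with the change was -0.35 across 30 genes that share libraries.

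Hoxd1 was nearly lost over the course, with 237, 229.8 and 197 at 6 h, 125, 107 and 106 at 12 h, 27.1, 30.8 and 45.4 at 24 h and 15.1, 21.7 and 12.0 at 36 h. Hoxd3 had 41.4, 67.1 and 63.5 at 6 h, 39.0, 77.0 and 62.2 at 12 h, 130.4, 115 and 103 at 24 h and 192, 251 and 213 at 36 h. Hoxd4 had 45.7, 44.5 and 67.0 at 6 h, 113, 94.5 and 94.9 at 12 h, 179.5, 189.8 and 163 at 24 h and 212, 150.4 and 216 at 36 h. No 2 successive times overlapped in Hoxd1, while the 6 h and 12 h libraries overlapped in Hoxd3 and lay apart in Hoxd4. From 6 h to 36 h Hoxd1 changed by -3.72 ± 0.26 (adjusted p = 2.61e-08 in limma), Hoxd3 by 1.94 ± 0.26 (1.90e-05) and Hoxd4 by 1.87 ± 0.21 (3.51e-06). The calls of these 3 held under all 18 alternatives run for each. Reads of Hoxd3 and Hoxd4 carry the uncertainty given above.

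**Figure D5:**
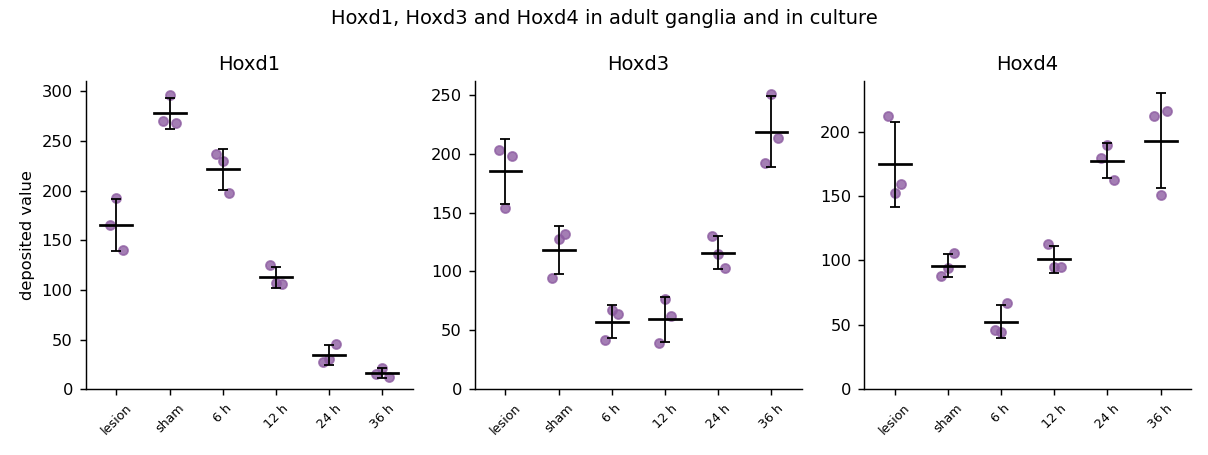
Deposited values (y axes) of Hoxd1, Hoxd3 and Hoxd4 in each adult library (points), with mean and SD (bars), after lesion, after sham operation and at 6, 12, 24 and 36 h of culture. Hoxd1 lies lower after lesion than after sham operation and falls at each later time to a mean of 16.3, while Hoxd3 and Hoxd4 lie higher after lesion and reach means of 219 and 193 at 36 h.

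Other head-end genes followed Hoxd3 and Hoxd4 at smaller size. Hoxb4 had 107, 99.2 and 96.0 at 36 h against 55.9, 40.1 and 56.4 at 6 h (0.99 ± 0.22, adjusted p = 0.00135 in limma). Hoxb3 had 167, 144 and 115 at 36 h against 67.5, 74.8 and 91.7 at 6 h (0.85 ± 0.22). Hoxa3 had 49.6, 91.5 and 55.4 at 36 h against 34.1, 34.6 and 28.2 at 6 h (0.95 ± 0.29). Groups did not overlap in these, and without the second 36 h library Hoxa3 was not called (adjusted p = 0.0603). Hoxc5, of group 5, had 53.9, 57.4 and 46.2 at 36 h against 24.7, 17.6 and 28.2 at 6 h (1.15 ± 0.36), and was not called without the second 6 h library (adjusted p = 0.0604).

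All called members of groups 8 to 10 fell, and so did Hoxb5. Hoxb5 had 89.5, 185 and 88.6 at 36 h against 269, 244 and 239.8 at 6 h (-1.13 ± 0.24). Hoxc10 had 76.5, 58.9 and 77.5 at 36 h against 129, 127 and 176 at 6 h (-1.01 ± 0.25). Hoxa10 had 166, 219 and 207 at 36 h against 349, 338 and 328 at 6 h (-0.78 ± 0.16). The 36 h libraries lay below all 6 h libraries in each, with adjusted p in limma of 0.00112, 0.00380 and 0.000986. Hoxc10 (adjusted p = 0.163 in limma), Hoxa10 (0.0679), Hoxd10 (0.175) and Hoxc5 (0.197) were not called in 1 fit over all 24 libraries, where 6 members fell. Hoxa9, with the highest mean per kb at both times, had 384, 512 and 375 at 36 h against 711, 613 and 800.4 at 6 h (-0.75 ± 0.14). Hoxb8 (-0.78 ± 0.25) and Hoxd8 (-0.43 ± 0.16) were also called. Hoxb8 missed the threshold without the third 36 h library (adjusted p = 0.051), and Hoxd8 without any of 8 of the 12 culture libraries. Hoxd10 had a log2 change of -1.03 ± 0.38, with 50.7, 27.9 and 71.1 at 36 h against 84.9, 80.3 and 130.5 at 6 h (adjusted p = 0.0328 in limma). That call was lost without the first or the third 6 h library or the first or the second 36 h library, with adjusted p from 0.0514 to 0.162. Hoxd10 also lost it with no filter (adjusted p = 0.054 in limma) and in edgeR (0.0696), and kept it in 11 of 18 alternatives. Its neighbour Hoxd11 had 21.6, 17.1 and 51.7 at 36 h and 47.2, 46.2 and 119.9 at 6 h, overlapping groups, and was not called (-1.23 ± 0.55). At each of the 4 times the third library had the most Hoxd10, Hoxd11, Hoxc10 and Hotair of its time. Whether the third libraries of the 4 times share a preparation is not given. Hotair was the 1 noncoding RNA tested in culture and was not called, with 3.23, 4.65 and 23.1 at 36 h and 0, 2.20 and 14.1 at 6 h.

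Over the same interval endothelium markers, 5 genes, summed to between 3833 and 5117 at 36 h and between 2239 and 2943 at 6 h, with 5 of 5 higher, and macrophage markers to between 322 and 380 at 36 h and between 130 and 168 at 6 h. Mesenchyme markers summed to between 4019 and 4306 at 36 h and between 2425 and 3011 at 6 h, and sensory neuron markers to between 39804 and 46656 at 36 h and between 48843 and 54476 at 6 h, with 6 of 10 lower. For glia, 10 markers summed to between 32104 and 37310 at 36 h and between 32944 and 39766 at 6 h, with 5 higher and 3 lower. Blood markers summed to between 203 and 462 at 36 h and between 543 and 786 at 6 h, and spinal cord markers to between 88.4 and 134 at 36 h and between 53.3 and 67.0 at 6 h. Their part in the Hox changes was not tested. Of the 9 partner genes Meis3 (0.70 ± 0.28) rose, and Pknox2 (-1.51 ± 0.16), Meis2 (-1.43 ± 0.21) and Pknox1 (-0.36 ± 0.11) fell. Of 22 tested regulators 6 rose, near the 25.3% of all genes that did, led by the Polycomb genes Cbx2 (2.43 ± 0.25), Phc1 (1.43 ± 0.17) and Ezh2 (1.34 ± 0.28), and Psip1 fell (-0.61 ± 0.21).

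Cultures at 6 h were last set against sham-operated ganglia, where plating, operation, ganglion levels and library series differ together and cannot be told apart. Of 29 members tested 17 fell (30.7% of all genes did), 3 rose (27.6% did) and 9 were not called, with 58.3% of all 14566 tested genes called. The median change of the members was -0.47, against -0.06 over all genes. The groups lay apart in 21 members and in 65.2% of all genes. Hoxd11 had 47.2, 46.2 and 119.9 at 6 h against 3.94, 5.85 and 14.9 after sham operation. Hoxd10 had 84.9, 80.3 and 130.5 at 6 h against 11.8, 16.1 and 20.6 after sham operation. Both rose, with no overlap, by 3.00 ± 0.46 and 2.53 ± 0.28 (adjusted p = 8.39e-05 and 2.07e-06 in limma).

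The falls were largest in Hoxb2, Hoxb6 and Hoxb3. Hoxb2 had 32.7, 30.8 and 17.6 at 6 h against 106, 109 and 91.8 after sham operation (-1.93 ± 0.25). Hoxb6 had 58.1, 58.3 and 42.3 at 6 h against 148, 166 and 135 after sham operation (-1.49 ± 0.19). Hoxb3 had 67.5, 74.8 and 91.7 at 6 h against 168, 178 and 197 after sham operation (-1.21 ± 0.17). All 6 h libraries lay below all sham libraries, with adjusted p in limma of 1.20e-05, 1.02e-05 and 2.62e-05. Hoxa7 (-1.08 ± 0.17), Hoxd3 (-1.04 ± 0.22), Hoxa10 (-1.04 ± 0.11), Hoxb8 (-0.95 ± 0.14) and Hoxd4 (-0.88 ± 0.21) followed. Hoxb5 was not called, with 269, 244 and 239.8 at 6 h and 268, 235 and 254 after sham operation (-0.01 ± 0.13), nor was Hoxd8 (-0.06 ± 0.13). Hoxd1 changed by -0.33 ± 0.13, with 237, 229.8 and 197 at 6 h against 269.6, 296 and 268 after sham operation. Its adjusted p was 0.0445 in limma, and it was not called without any 1 sham library or without the third 6 h library (0.0859 to 0.18). Other settings lost the call too, with adjusted p in limma of 0.0577 with no filter, 0.063 after TMM and 0.246 in 1 fit over all 24 libraries. It was 0.0609 in edgeR and 0.143 in DESeq2, so that Hoxd1 was called in 3 of 12 alternatives. The weaker calls of Hoxa9, Hoxc5, Hoxc9 and Hoxc10, with changes from -0.36 to -0.81, were likewise lost without 1 to 5 of the 6 libraries in turn, always including the second sham library. In 1 fit over all 24 libraries 10 members fell. Hoxc10 was called in 3 of its 12 alternatives.

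Glia markers summed to between 32944 and 39766 at 6 h and between 81987 and 100837 after sham operation, with 8 of 10 lower, and mesenchyme markers to between 2425 and 3011 at 6 h and between 8176 and 10529 after sham operation, with 10 of 12 tested lower. Sensory neuron markers summed to between 48843 and 54476 at 6 h and between 96636 and 106437 after sham operation, with 5 of 10 lower and 2 higher. Endothelium markers summed to between 2239 and 2943 at 6 h and between 1018 and 1136 after sham operation, with 3 of 5 higher. Blood markers summed to between 543 and 786 at 6 h and between 4620 and 5014 after sham operation, with 5 of 5 tested lower, and macrophage markers to between 130 and 168 at 6 h and between 402 and 431 after sham operation. Spinal cord markers summed to between 53.3 and 67.0 at 6 h and between 16.8 and 27.0 after sham operation, with 2 of 2 tested higher. Their part in the Hox differences was not tested. Of the 9 partner genes 1 rose, Pknox1 (1.11 ± 0.12), and 3 fell (30.7% of all genes did), among them Pknox2 (-0.91 ± 0.12) and Pbx2 (-0.54 ± 0.12). Of 22 tested regulators 9 rose (27.6% of all genes did), led by Kdm6b (1.89 ± 0.14), and 7 fell, led by Cbx8 (-2.37 ± 0.31).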

How the data were processed

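RNA of 24 libraries was sequenced with a TruSeq V2 kit from 10 ng of total RNA after cell sorting, per the labels' protocols, which repeat 1 text for all libraries, so it is unclear whether embryonic and operated ganglia were sorted. The submitters' processing notes name the aligner TopHat and the build mm10. How reads were counted, and whether by strand, was not given. The deposited signal values are read counts that the authors divided by 1 factor per library. All 339610 values of up to 1000 reads checked were whole reads within a tolerance of 0.1 (100%). On log2(value + 1), limma 3.58.1 (R 4.3.3; eBayes with trend and robust) was fitted to genes where at least 3 libraries of the fit reached 10. A fold is on that scale and understates changes of low genes. The Benjamini-Hochberg adjustment covered every gene tested (threshold 0.05). Each contrast used only its own groups, and the culture tests the 4 times. Alternatives were a pseudocount of 0.5, no filter, edgeR 4.0.16 and DESeq2 1.42.0 on recovered reads, a TMM rescale, 1 fit over all libraries and leaving out each library. TMM moved the median of all genes by at most 0.05 on the log2 scale. The tests were also tested on simulated data. Library values are given for members with a highest group mean of at least 100.0 or called, and for the 8 largest changes where more than 8 were called, and from the gene lists up to 3 rises and 3 falls are named. Gene positions came from GENCODE M21, promoters from RefSeq. The members, lists and markers were chosen with earlier results of these data known. Values of some individual genes are not reported here, in text or plots, though counts and medians include them.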

Additional observations from a re-analysis of the deposited data

How the results depend on the processing

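No paired analysis was possible because the labels give libraries a running number only, and no 2 groups share one. Of 2601 repeats of single-gene results under other settings, 2448 stayed on their side of the threshold, 103 lost the call and 50 gained one, and 0 changed sign while called. The number of Hox genes higher at E17.5 than at E12.5 was 4 to 7 over fits that leave out 1 library (7 with all). It was 4 without each E17.5 library, since Hoxa11, Hoxd10 and Hoxd11 then had too few libraries at 10 or more for the filter. After lesion the number higher was 2 to 4 over such fits and the number lower 5 to 9, against 2 and 8 with all libraries. The number higher after sham operation than at E17.5 was 3 to 5 (3 with all). In 1 fit over all 24 libraries, 1 member was higher and 3 lower after lesion, and 10 were lower at 6 h of culture than after sham operation, against 17. The cause was not tested. The share of the summed Hox value from paralog groups 10 to 13 after sham operation was 14.9% per kb of exon, against 17.0% on deposited values. Other counts under other settings stayed within 1.5 times. Treating the library number series as a block left the lesion counts at 2 and 8. Limits: with 3 libraries a group and 3.10 to 4.61 M reads in the shallowest, genes under a value of about 10 could not be tested, and the strand used in counting is unknown.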
